A study of Mus musculus with 6 samples.

Results

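Keratin genes were followed in inflamed mouse skin. They were taken as every row of the expression table whose symbol is Krt followed by a number and at most 1 letter, which gave 52 of 18824 genes and left out the keratin-associated proteins. RNA-seq had been run on 6 skin libraries from C57BL/6j mice with dermatitis brought on by MC903, an analogue of vitamin D. Of these, 3 libraries named CCR3 came from treated mice and 3 named VEH from mice given vehicle, with replicates 1, 2 and 4 in each group. The compound is SB328437, which blocks the chemokine receptor CCR3, in the text of the series, but SC144, which inhibits gp130, a subunit of cytokine receptors, in the treatment label of these libraries. The compound is therefore not settled, and the groups keep their names CCR3 and VEH. The sources used here do not give body site, age, sex, dose or pooling of animals, and skin without MC903 was not analysed here.

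Keratins build the intermediate filaments of epithelial cells, and each filament needs a type I and a type II partner. Basal cells of the epidermis make Krt5 and Krt14, and cells that leave the basal layer switch to Krt1 and Krt10, with Krt2 added higher up. Wounded or inflamed epidermis adds Krt6a, Krt6b, Krt16 and Krt17. Simple epithelia use Krt8 and Krt18, and the hair follicle has sets of its own for the shaft, the inner root sheath and the companion layer.

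Values were FPKM, which are scaled to transcript length and library size, so that levels can be compared between genes. FPKM summed to 517764 to 553305 per library, the number of reads behind them is unknown, and 12919 to 13054 genes reached 1 FPKM. All 6 keratinocyte markers outside the keratin family (Trp63, Perp, Dsp, Dsg3, Col17a1 and Sfn) were present in every library (summed level 1590 to 2380 FPKM in CCR3 and 1678 to 1898 FPKM in VEH). CCR3 replicate 2 had the highest keratinocyte sum of the 6 libraries, the lowest sum of 4 leukocyte markers (443 FPKM, against 509 and 645 FPKM in the other CCR3 libraries and 635 to 683 FPKM in VEH) and the lowest sum of 4 adipocyte markers (27.8 FPKM, against 34.8 and 52.2 FPKM, and 60.3 to 68.0 FPKM in VEH). In bulk tissue, fewer cells of a type and less RNA per cell cannot be told apart. Whether each replicate was a separate animal is not stated, so the p-values cover the spread of these samples alone, which may be technical.

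No keratin passed the test between CCR3 and VEH. Genes that reached 1 FPKM in 3 libraries or more were compared on the log2(FPKM + 1) scale with limma, and 24 of the 52 keratins met that filter. With Benjamini-Hochberg adjustment over all 13063 tested genes at 0.05, 0 of 24 were called higher and 0 lower. Of all tested genes 1.36% were called higher and 2.37% lower. At an unadjusted p under 0.05, 2 of the 24 were higher (8.03% of all genes) and 0 lower (15.1% of all genes), and these were Krt84 and Krt36. The log2 fold change was positive for 19 of the 24 keratins and for 40.2% of all tested genes, with a median of 0.20 against -0.04. All CCR3 libraries lay above all VEH libraries for 4 of the 24 keratins, Krt84, Krt36, Krt80 and Krt23, where the share over all tested genes was 10.4%. None of the 24 lay wholly below, against 18.3% of all tested genes. Among the 28 untested keratins, which did not exceed 1.02 FPKM, CCR3 lay wholly below VEH for Krt18, Krt19, Krt33b and Krt72. It lay wholly above VEH for Krt34 and Krt39. Shares over all untested genes were not computed.

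**Figure D1:**
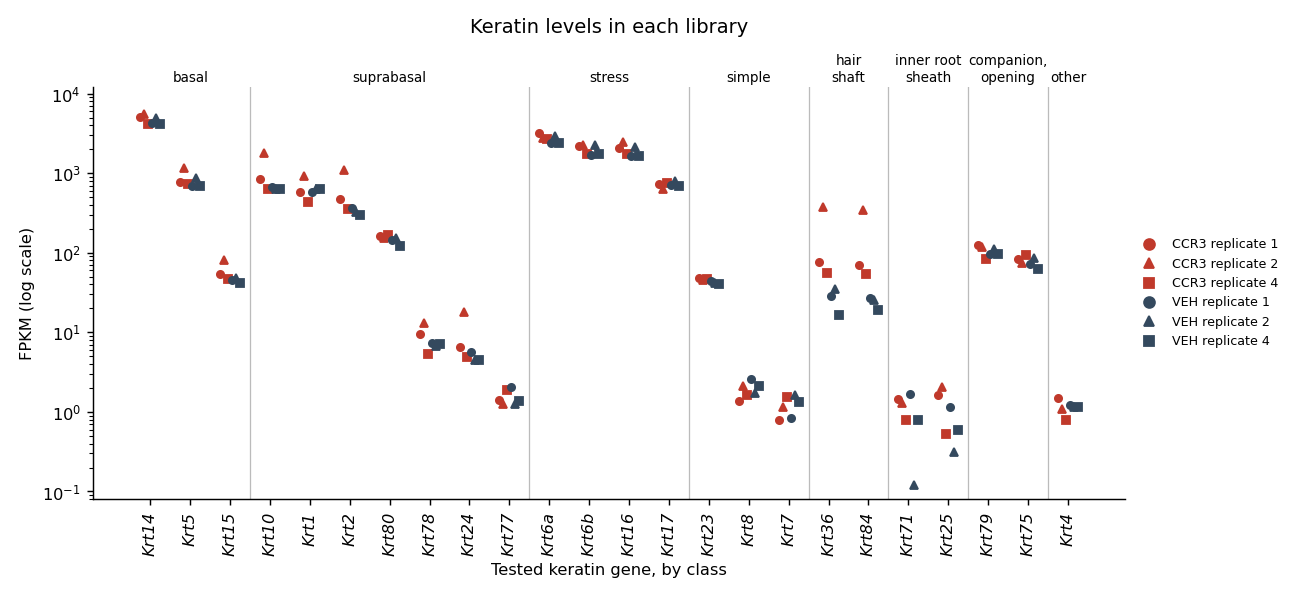
FPKM (log axis) of the 24 tested keratins, grouped by class, with 1 point for each of the 6 libraries. Krt14 led at 4157 to 5478 FPKM, and Krt36 and Krt84 showed the widest spread, with CCR3 replicate 2 highest.

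**Figure D2:**
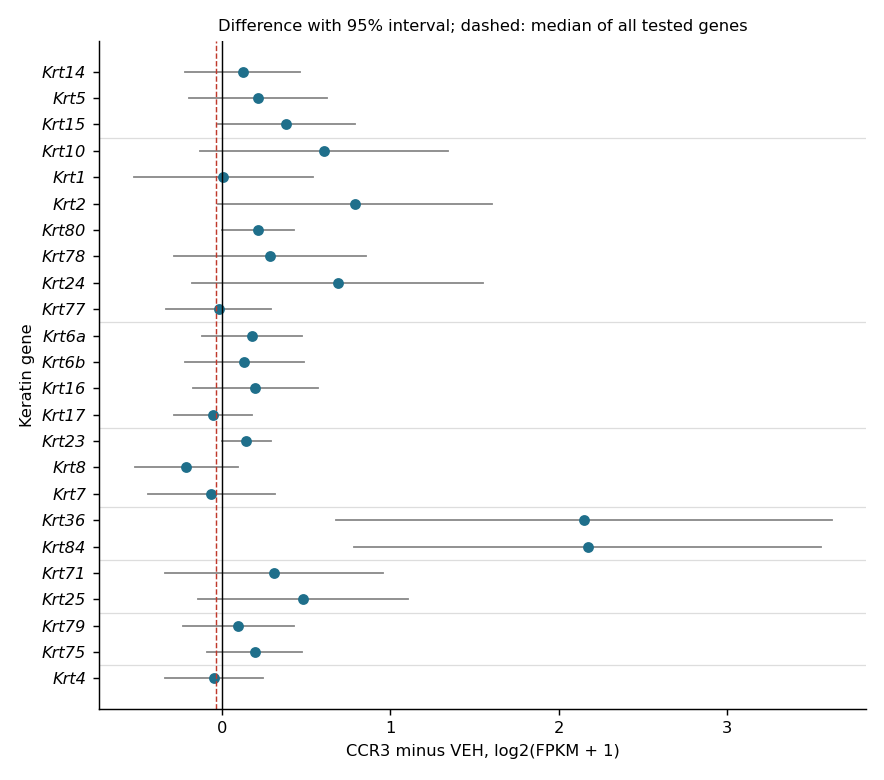
Difference between CCR3 and VEH on the log2(FPKM + 1) scale for the 24 tested keratins, as limma's estimate with its 95% interval, not adjusted for the number of genes. Krt36 and Krt84 stand at 2.15 and 2.17, and the dashed line marks the median of all tested genes at -0.04.

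The basal pair was abundant in every library. Krt14 (Entrez gene 16664), the type I keratin of basal cells, was the second-ranked gene of the table by mean FPKM, at 5110.25, 5478 and 4157 FPKM in CCR3 replicates 1, 2 and 4 and 4301, 4994 and 4203 FPKM in VEH replicates 1, 2 and 4. Its partner Krt5 (110308) was measured at 776, 1148 and 732 FPKM in CCR3 and 699, 868 and 687 FPKM in VEH. The groups overlapped for both genes, with log2 fold changes of 0.12 ± 0.15 (SE) for Krt14 and 0.21 ± 0.18 for Krt5 and limma adjusted p = 0.651 and 0.497. Krt15 (16665), a keratin of resting basal cells and of the hair follicle bulge, was at 54.8, 80.8 and 46.3 FPKM in CCR3 and 44.9, 48.3 and 42.1 FPKM in VEH. CCR3 replicate 2 was its highest library, and its groups overlapped through CCR3 replicate 4 (log2 fold change 0.38 ± 0.18 SE, limma adjusted p = 0.239).

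The stress-induced keratins were among the most abundant transcripts of this skin and differed little between the groups. Together Krt6a, Krt6b, Krt16 and Krt17 made up 46.9 ± 5.04% of the keratin FPKM sum in CCR3 and 48.8 ± 1.46% in VEH (SD, n = 3 each). Krt6a (16687) ranked seventh in the table, at 3179.5, 2800.35 and 2727 FPKM in CCR3 and 2407, 2937 and 2379.89 FPKM in VEH. Krt6b (16688) was at 2227, 2232 and 1752 FPKM in CCR3 and 1675, 2255 and 1747 FPKM in VEH. VEH replicate 2 lay among the CCR3 values for Krt6a and above all of them for Krt6b. Krt16 (16666), the type I partner of Krt6, was at 2054, 2451 and 1718 FPKM in CCR3 and 1638, 2104 and 1660.17 FPKM in VEH. Krt17 (16667), which basal and follicle cells also make, was at 726, 641 and 757 FPKM in CCR3 and 706, 805 and 696 FPKM in VEH, with the lowest of the 6 values in CCR3 replicate 2.

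The log2 fold changes of the stress-induced keratins were 0.18 ± 0.13 (SE) for Krt6a, 0.13 ± 0.15 for Krt6b, 0.20 ± 0.16 for Krt16 and -0.06 ± 0.10 for Krt17, with limma adjusted p between 0.436 and 0.773. The sign for Krt17 turned without CCR3 replicate 2 (0.01) and without VEH replicate 2 (0.01). The 95% intervals ran from -0.12 to 0.47 for Krt6a, from -0.22 to 0.49 for Krt6b, from -0.17 to 0.57 for Krt16 and from -0.29 to 0.18 for Krt17. A change of 1 on the log2 scale in either direction lay outside each of these intervals. Relative to the basal pair, the summed level of the 4 genes was 1.39, 1.23 and 1.42 times that of Krt5 and Krt14 in CCR3 and 1.29, 1.38 and 1.33 times in VEH.

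Krt6a and Krt6b are neighbours with nearly the same coding sequence, which bears on how far single-end reads of 50 bases can tell them apart. Their GENCODE M21 coding sequences of 1662 and 1665 bases were identical at 97.6% of aligned positions, with a longest identical run of 280 bases. Of all windows of 50 bases, 62.0% in the Krt6a transcript and 50.1% in that of Krt6b also occurred in another gene. Krt6b held 43.6% of the Krt6a windows and Krt6a 44.5% of the Krt6b windows, and further matches lay in Gm5478, Gm49428 and Gm5414. Of 1665 aligned coding positions 1625 were identical, and the differences lay in more than 1 stretch. The 90 coding bases with the most differences, 12, are shown as an example (bases 787 to 876 counted from the start codon, chromosome 15, differences in capitals).
Krt6a: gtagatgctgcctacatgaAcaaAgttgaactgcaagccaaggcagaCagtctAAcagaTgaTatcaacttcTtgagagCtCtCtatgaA
Krt6b: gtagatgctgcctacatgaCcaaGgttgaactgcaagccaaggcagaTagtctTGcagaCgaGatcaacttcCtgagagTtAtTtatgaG
How the authors assigned shared reads is not given in the sources used here, so the split between Krt6a and Krt6b is uncertain. The ratio of Krt6a to Krt6b was 1.43, 1.25 and 1.56 in CCR3 and 1.44, 1.30 and 1.36 in VEH. Krt16 shared 37.6% of its windows with other transcripts, most of them with Gm11597 (25.2%), and Krt14 shared 14.4%, most of them with Krt16 (11.4%). Krt17 shared 3.99%, and none of the windows of Krt1, Krt2, Krt24 or Krt84 occurred in another gene.

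Of the 8 suprabasal keratins, 5 (Krt1, Krt2, Krt10, Krt24 and Krt78) were highest in CCR3 replicate 2, and Krt9, Krt77 and Krt80 were not. Krt10 (16661), the type I keratin of differentiating epidermis, was at 836, 1779 and 640.12 FPKM in CCR3 and 673, 629.96 and 639 FPKM in VEH. Krt2 (16681), a type II keratin of the upper spinous and granular layers, was at 469, 1099 and 358 FPKM in CCR3 and 364, 329.91 and 298 FPKM in VEH. CCR3 replicate 2 stood far above the rest for both genes, while CCR3 replicate 4 lay inside the VEH range for each. Krt24 (75706), a type I keratin of differentiating keratinocytes, was also highest in CCR3 replicate 2, at lower levels, with 6.52, 18.1 and 4.89 FPKM in CCR3 and 5.72, 4.52 and 4.46 FPKM in VEH. The log2 fold changes were 0.60 ± 0.32 (SE) for Krt10, 0.79 ± 0.35 for Krt2 and 0.69 ± 0.38 for Krt24, and none passed (limma adjusted p = 0.294, 0.226 and 0.306). Without CCR3 replicate 2 they were 0.18, 0.32 and 0.18.

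Krt1 (16678), the type II partner of Krt10, did not share that pattern in full. It was at 582, 916 and 439 FPKM in CCR3 and 576, 632 and 632 FPKM in VEH, so that CCR3 replicate 2 was above and CCR3 replicate 4 below all VEH libraries. Its log2 fold change was 0.01 ± 0.23 (SE, limma adjusted p = 0.989), with a 95% interval from -0.52 to 0.54, and it turned to -0.28 without CCR3 replicate 2 and to -0.04 without VEH replicate 1. The ratio of Krt1 to Krt10 within each library was 0.696, 0.515 and 0.685 in CCR3 and 0.856, 1.00 and 0.989 in VEH. All 3 CCR3 values lay below the VEH values, a mean log2 difference of -0.60 that ran from -0.67 to -0.46 when each library was left out in turn. An exact 2-sided permutation test gave p = 0.1, the smallest that 3 against 3 allows, or 0.167 adjusted over the 5 partner ratios tested. The ratio of Krt1 to Krt2, chosen after the values were seen, was 1.24, 0.833 and 1.22 in CCR3 and 1.58, 1.91 and 2.12 in VEH, also without overlap.

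Among the other suprabasal keratins, Krt80 (74127), a type II keratin of differentiating epithelia, was at 162, 153 and 169 FPKM in CCR3 and 144, 153 and 122 FPKM in VEH. The lowest CCR3 and the highest VEH library nearly met, and the log2 fold change of 0.21 ± 0.09 (SE) missed the threshold (limma adjusted p = 0.219). Krt78 (332131) was at 9.41, 13.2 and 5.34 FPKM in CCR3 and 7.28, 6.8 and 7.04 FPKM in VEH. It did not pass either (limma adjusted p = 0.515), though it was called without CCR3 replicate 4 (log2 fold change 0.60, limma adjusted p = 0.027). Without that library, 558 genes were called higher over all tested genes, against 178 with all libraries. Krt77 (406220), an epidermal type II keratin, was at 1.43, 1.26 and 1.87 FPKM in CCR3 and 2.03, 1.27 and 1.39 FPKM in VEH, with a log2 fold change of -0.02 that turned to 0.01 with median-centred values. Krt9, the keratin of palms and soles, lay at or under 0.06 FPKM in every library. Class by class, the suprabasal sum was 2066, 3979 and 1618 FPKM in CCR3 and 1771, 1757 and 1705 FPKM in VEH.

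**Figure D3:**
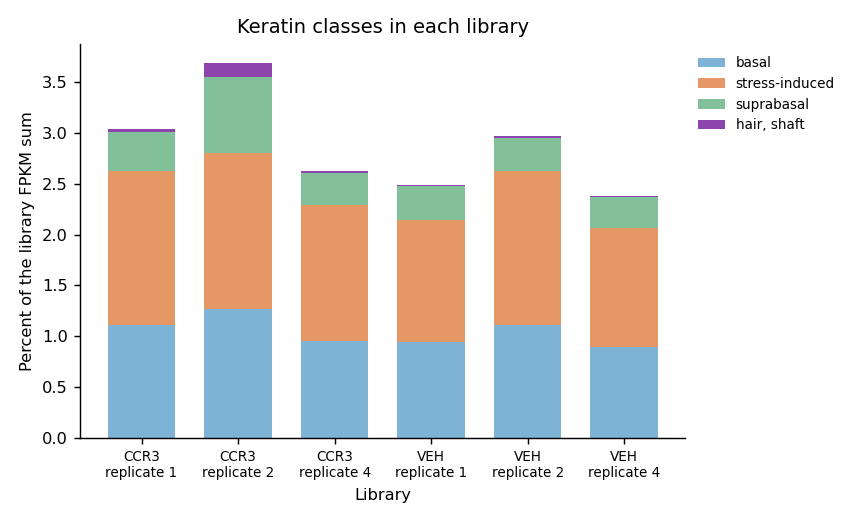
Summed FPKM of the basal, stress-induced, suprabasal and hair shaft keratins as a percent of the FPKM sum of each library, stacked. The part classed as hair shaft was nearly all Krt36 and Krt84 (0.137% of the library sum, of 0.138% for the class, in CCR3 replicate 2). These genes are also known from tongue papillae and tail scales. All 52 keratins held 3.09, 3.74 and 2.68% in CCR3 replicates 1, 2 and 4 and 2.53, 3.01 and 2.42% in VEH replicates 1, 2 and 4, and CCR3 replicate 2 had the largest suprabasal part (0.752%).

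Krt36 and Krt84 had the largest differences of the family. Both are hard keratins, Krt36 of type I and Krt84 of type II, known in mice from the filiform papillae of the tongue and from the scales of tail skin. Krt36 (16673) was at 75.6, 376 and 55.7 FPKM in CCR3 and 28.9, 35.2 and 16.4 FPKM in VEH. Krt84 (16680) was at 70.03, 349.59 and 53.7 FPKM in CCR3 and 26.8, 25.6 and 19.1 FPKM in VEH. Every CCR3 library lay above every VEH library for both genes, and CCR3 replicate 2 was 5.73 times the mean of the other CCR3 libraries for Krt36 and 5.65 times for Krt84. Group means were 169 ± 179 against 26.8 ± 9.59 FPKM for Krt36 and 158 ± 166 against 23.9 ± 4.16 FPKM for Krt84 (SD, n = 3 each).

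The log2 fold changes were 2.15 ± 0.64 (SE) for Krt36 and 2.17 ± 0.60 for Krt84, and neither passed (limma adjusted p = 0.105 and 0.0873). The call depended on CCR3 libraries. Without CCR3 replicate 2, the log2 fold change of Krt84 was 1.34 ± 0.16 and it was called (limma adjusted p = 0.00614), and that of Krt36 was 1.31 ± 0.27 and just missed (limma adjusted p = 0.0502). Without CCR3 replicate 4 both were called, with log2 fold changes of 2.67 for Krt36 and 2.68 for Krt84 (limma adjusted p = 0.033 and 0.0266). That fit called 558 of all 13063 tested genes higher, against 178 with all libraries and 148 without CCR3 replicate 2. Leaving out any 1 of the other 4 libraries left them uncalled, with limma adjusted p up to 0.313 for Krt36 and 0.275 for Krt84. The ratio of Krt84 to Krt36 stayed between 0.927 and 0.964 in the CCR3 libraries and was 0.927, 0.728 and 1.17 in VEH.

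The other keratins classed with the hair shaft were near the floor, so the class sum does not describe hair shaft transcripts in general. The 13 of them (Krt31, Krt32, Krt33a, Krt33b, Krt34, Krt35, Krt39, Krt40, Krt81, Krt82, Krt83, Krt86 and Krt87) summed to 1.65, 2.53 and 1.14 FPKM in CCR3 and 2.05, 0.77 and 1.32 FPKM in VEH. The highest single value among them was 0.91 FPKM, for Krt34 in CCR3 replicate 2, and Krt40 did not exceed 0.03 FPKM. In the RefSeq order of GRCm38.p6, Krt36 stands between Krt35 (0.03 to 0.16 FPKM) and Krt13 (0.06 to 0.27 FPKM) among genes of the table, and Krt84 between Krt83 (0.09 to 0.24 FPKM) and Krt82 (0.05 to 0.19 FPKM). Krt36 and Krt84 thus stood far above neighbouring keratin genes that stayed under 1 FPKM.

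The bases before the start sites of Krt36 and Krt84 are shown because these genes kept a near-constant ratio over the CCR3 libraries. In VEH their ratio ran from 0.728 to 1.17, and shared control was not tested. RefSeq promoters of build GRCm38.p6 were found for 36 of the 52 keratins (37 promoters), and the 250 bases before each start were searched on both strands for 4 motifs. Capitals mark TATAA, the core of the TATA box, or its reverse complement.
Krt36, chr11:100105627-100105876, minus strand: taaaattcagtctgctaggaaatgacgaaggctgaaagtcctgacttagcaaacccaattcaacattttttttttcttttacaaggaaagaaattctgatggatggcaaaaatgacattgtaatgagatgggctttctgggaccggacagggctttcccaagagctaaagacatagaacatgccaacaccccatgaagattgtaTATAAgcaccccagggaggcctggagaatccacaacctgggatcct
Krt84, chr15:101532821-101533070, minus strand: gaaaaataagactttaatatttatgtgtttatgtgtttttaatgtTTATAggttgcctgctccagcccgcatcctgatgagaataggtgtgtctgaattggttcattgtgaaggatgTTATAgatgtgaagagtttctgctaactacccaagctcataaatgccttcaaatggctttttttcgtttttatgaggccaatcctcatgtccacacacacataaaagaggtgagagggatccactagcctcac
TATAA was found in 24 of the 37 keratin promoters (64.9%) and in 22.8% of all 32851 promoters. In Krt36 it began 46 bases before the start on the gene's strand, and in Krt84 both matches were on the opposite strand, 205 and 133 bases before the start.

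CTTTGAA, the core of a site that LEF1 binds in hair keratin promoters, was found in 5 of the 37 keratin promoters (13.5%) and in 4.46% of all promoters. The 5 were Krt31, Krt32, Krt33b, Krt34 and Krt39, which are hair shaft keratins measured under 1 FPKM here. The letters did not occur in the windows of Krt36 and Krt84. The site is shown for 3 of the genes that hold it, with the match in capitals and each window on the minus strand of chromosome 11.
Krt31, chr11:100050772-100050801: tgacttCTTTGAAgggctactgcagaactc
Krt32, chr11:100088490-100088519: gccCTTTGAAgatgtgtcttgatgctctcc
Krt34, chr11:100041775-100041804: aatctgcctcCTTTGAAggcatctaatgaa
TGANTCA, an AP-1 site, was found in both promoters of Krt13 and no other keratin promoter (5.41%, against 6.75% of all promoters). The palindromic glucocorticoid receptor site was found in 0 of 37, against 0.387% of all promoters.

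**Figure D4:**
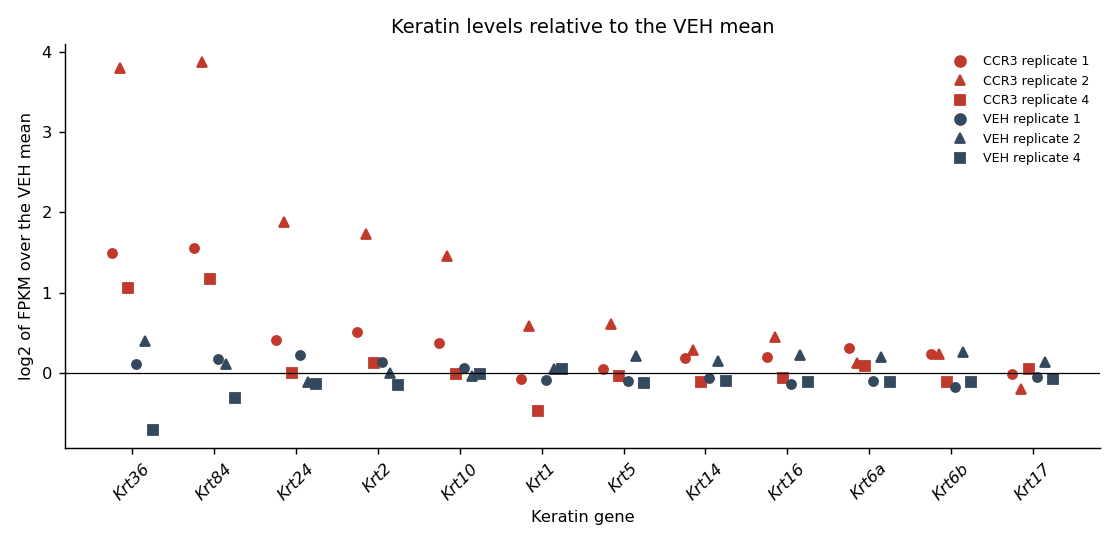
FPKM of 12 keratins in each library, divided by the VEH mean of the gene and shown on a log2 scale. CCR3 replicate 2 lies above all other libraries for Krt36, Krt84, Krt24, Krt2, Krt10, Krt1, Krt5, Krt14 and Krt16, but not for Krt6a, Krt6b and Krt17.

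Keratins differed in how far CCR3 replicate 2 stood from the rest of its group. For 10 of the 24 tested keratins its value was at least 1.5 times the mean of the other CCR3 libraries, where 2.41% of all tested genes reached that, and for 5 it was at least 2 times (0.513% of all tested genes). The 5 were Krt36, Krt84, Krt24 (3.17 times), Krt2 (2.66 times) and Krt10 (2.41 times). The other 5 were Krt25 (1.90 times), Krt78 and Krt1 (1.80 and 1.79 times) and the basal keratins Krt15 and Krt5 (1.60 and 1.52 times). The suprabasal keratins Krt80 and Krt77 lay below the other CCR3 libraries, at 0.924 and 0.764 times. None of the 4 stress-induced keratins reached 1.5 times, with 1.30 for Krt16, 1.12 for Krt6b, 0.948 for Krt6a and 0.864 for Krt17. This count was made after the values were seen and describes 1 library. The keratinocyte marker sum of that library was also the highest of the 6 and its leukocyte and adipocyte sums the lowest. Its sum of 4 skeletal muscle markers was the highest as well (141 FPKM, against 86.9 and 98.4 FPKM in the other CCR3 libraries and 49.9 to 121 FPKM in VEH), and that of 4 fibroblast markers the lowest (2098 FPKM, against 2433 and 2464 FPKM, and 2345 to 2669 FPKM in VEH). The part of these markers in these levels was not tested.

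Keratins of the inner root sheath, the layer that moulds the growing hair, were scarce. All 7 together summed to 4.55, 4.85 and 1.91 FPKM in CCR3 and 4.71, 0.93 and 2.63 FPKM in VEH, and the groups overlapped. Krt71 (56735) was at 1.44, 1.29 and 0.80 FPKM in CCR3 and 1.66, 0.12 and 0.78 FPKM in VEH. Krt25 (70810) was at 1.63, 2.05 and 0.53 FPKM in CCR3 and 1.16, 0.31 and 0.59 FPKM in VEH, and 10.9% of its windows of 50 bases occurred in other genes. Neither passed (limma adjusted p = 0.537 for Krt71 and 0.316 for Krt25). Krt25 was called without CCR3 replicate 4 (log2 fold change 0.78, limma adjusted p = 0.0473), in a fit that called 558 genes higher, against 178 with all libraries. Krt26, Krt27, Krt28, Krt72 and Krt73 lay under the filter, at 0 to 0.86 FPKM. Tchh, the inner root sheath protein trichohyalin, was by contrast at 282, 246 and 245 FPKM in CCR3 and 173, 182 and 159 FPKM in VEH and was called higher (log2 fold change 0.58, limma adjusted p = 0.0148). The rest of a list of hair matrix and inner root sheath genes (Shh, S100a3, Padi3, Gata3 and Foxn1) did not exceed 7.87 FPKM. None of them was called, and Shh was too low to be tested. Trichohyalin is also made in the filiform papillae of the tongue.

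Follicle keratins outside the shaft and the inner sheath were measured at higher levels. Krt75 (109052), the keratin of the companion layer, was at 83.4, 74.03 and 93.2 FPKM in CCR3 and 71.8, 85.1 and 62.7 FPKM in VEH. Krt79 (223917), a marker of the cells that form the follicle opening, was at 124, 119 and 84.4 FPKM in CCR3 and 96.7, 109.99 and 95.9 FPKM in VEH. The groups overlapped for both, with log2 fold changes of 0.19 ± 0.12 (SE) and 0.10 ± 0.14 and limma adjusted p = 0.376 and 0.713. The sign for Krt79 turned without CCR3 replicate 1 (-0.004).

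Keratins of simple epithelia were low except for Krt23. Krt8 (16691) and Krt18 (16668), the pair of single-layered epithelia, were at 1.38, 2.10 and 1.64 FPKM and at 0.42, 0.56 and 0.56 FPKM in CCR3, against 2.57, 1.71 and 2.12 FPKM and 1.02, 0.63 and 0.81 FPKM in VEH. The groups overlapped for Krt8, while all CCR3 values of Krt18 lay below all VEH values. Krt8 had a log2 fold change of -0.21 ± 0.13 (SE) and missed the threshold (limma adjusted p = 0.371), and 26.9% of its windows occurred in the pseudogene Krt8-ps. Krt18 was not tested, since 1 library reached 1 FPKM. Krt7 (110310), a keratin of ducts and glands, was at 0.80, 1.14 and 1.53 FPKM in CCR3 and 0.83, 1.61 and 1.33 FPKM in VEH (limma adjusted p = 0.844). Krt19 was at 0.55, 0.49 and 0.49 FPKM in CCR3 and 0.66, 0.66 and 0.71 FPKM in VEH, below the filter and, like Krt18, without overlap. Of all tested genes, 18.3% lay wholly below VEH, and the share over untested genes was not computed. Krt20, a keratin of Merkel cells, ranged from 0.30 to 0.62 FPKM. All 5 Merkel cell markers, Krt20 among them, stayed under 1 FPKM in every library (sums of 0.95 to 1.31 FPKM), and Atoh1, the factor that defines these cells, was listed at 0 in 5 of the 6 libraries.

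Krt23 (94179), a type I keratin, was at 48.6, 45.2 and 46.5 FPKM in CCR3 and 44.2, 42.1 and 40.4 FPKM in VEH. Its groups did not overlap, and the small difference missed the threshold (log2 fold change 0.14 ± 0.06 SE, limma adjusted p = 0.221). The remaining 7 keratins were near the floor. Krt4, a mucosal keratin, was at 1.51, 1.09 and 0.78 FPKM in CCR3 and 1.21, 1.15 and 1.16 FPKM in VEH and was not called (limma adjusted p = 0.854). Krt12, Krt13, Krt42, Krt76, Krt90 and Krt222 did not exceed 0.65 FPKM.

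**Figure D5:**
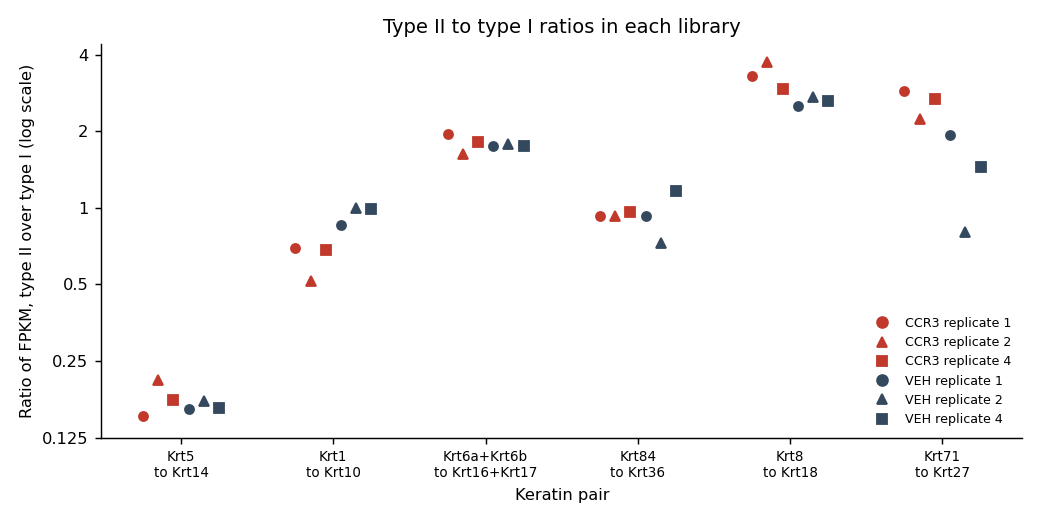
Ratio of type II to type I keratin FPKM (log axis) for 6 pairs, with 1 point for each of the 6 libraries. The ratio of Krt1 to Krt10 is 0.515 to 0.696 in CCR3 and 0.856 to 1.00 in VEH, while that of Krt5 to Krt14 overlaps between the groups.

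Type II and type I transcripts were close to balance over the family. Type II keratins made up 46.3, 45.04 and 46.4% of the keratin FPKM sum in CCR3 and 44.9, 46.1 and 45.3% in VEH. The ratio of Krt5 to Krt14 was 0.152, 0.210 and 0.176 in CCR3 and 0.162, 0.174 and 0.164 in VEH, with overlap (exact permutation p = 0.6, adjusted 0.7). That of Krt6a and Krt6b to Krt16 and Krt17 was 1.94, 1.63 and 1.81 in CCR3 and 1.74, 1.78 and 1.75 in VEH, also with overlap (exact permutation p = 0.7, adjusted 0.7). The ratios of Krt8 to Krt18 (3.29, 3.75 and 2.93 against 2.52, 2.71 and 2.62) and of Krt71 to Krt27 (2.88, 2.22 and 2.67 against 1.93, 0.80 and 1.44) did not overlap, each with an exact p of 0.1 (adjusted 0.167). Both rest on genes under 3 FPKM.

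Genes that work with keratins or control them gave 5 calls among 52 tested genes on 5 lists, 3 higher and 2 lower. Of all tested genes, 1.36% were called higher and 2.37% lower. The lists were chosen with earlier results of these data known, so setting their calls beside these shares is no test of the lists. Of 7 plakins, which tie keratin filaments to junctions, 0 passed with limma, and 3 were higher and 0 lower at an unadjusted p under 0.05, against 8.03% and 15.1% of all tested genes. Dsp (desmoplakin) averaged 179 ± 34.6 FPKM in CCR3, against 128 ± 17.1 FPKM in VEH (limma adjusted p = 0.112), and Ppl (periplakin) at 29.03 ± 6.84 and 21.2 ± 1.32 FPKM (limma adjusted p = 0.142, SD, n = 3 each). Of 8 filament-bundling proteins and transglutaminases, Tchh was called higher and none lower. Rptn (repetin), which like trichohyalin belongs to the cornified envelope, was at 569, 481 and 333 FPKM in CCR3 and 290.07, 281 and 266 FPKM in VEH, without overlap (limma adjusted p = 0.0728).

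Among 16 transcription factors and receptors of the epidermal keratin programme, Vdr, the vitamin D receptor through which MC903 acts, was called higher. It was at 18.6, 19.0 and 19.6 FPKM in CCR3 and 12.8, 13.4 and 13.04 FPKM in VEH (log2 fold change 0.51 ± 0.06 SE, limma adjusted p = 0.00723). Klf4, a factor of barrier formation, averaged 125.16 ± 12.8 FPKM in CCR3, against 113 ± 10.5 FPKM in VEH, and Cebpb, a factor of keratinocyte differentiation, at 119 ± 21.7 and 127 ± 4.65 FPKM, neither called (limma adjusted p = 0.408 and 0.643, SD, n = 3 each).

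Of 13 tested inducers of stress keratins, 1 was called higher and 2 lower (1.36% and 2.37% of all tested genes), and the median log2 fold change was -0.21, against -0.04 over all tested genes. Il1b, the cytokine interleukin 1 beta, was at 105, 127 and 106 FPKM in CCR3 and 249, 267 and 226 FPKM in VEH (log2 fold change -1.13 ± 0.10 SE, limma adjusted p = 0.00255). Hbegf, a ligand of the epidermal growth factor receptor, was at 15.7, 14.5 and 22.4 FPKM in CCR3 and 33.6, 44.6 and 28.6 FPKM in VEH (log2 fold change -0.98 ± 0.19 SE, limma adjusted p = 0.0352). Both lay lower in every CCR3 library than in any VEH library, while the 4 stress-induced keratins were not called in either direction. Egfr, the receptor itself, was at 13.8, 14.1 and 16.5 FPKM in CCR3 and 11.3, 11.2 and 9.78 FPKM in VEH and was called higher (log2 fold change 0.43 ± 0.09 SE, limma adjusted p = 0.0443). Junb, an AP-1 subunit, averaged 165 ± 5.59 FPKM in CCR3, against 198 ± 16.2 FPKM in VEH (SD, n = 3 each, limma adjusted p = 0.105).

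Of 8 hair keratin regulators 0 were called by limma, and 5 were higher and 0 lower at an unadjusted p under 0.05, where the shares over all tested genes were 8.03% and 15.1%. Hoxc13, a factor that binds hair keratin promoters, was at 7.48, 9.83 and 6.83 FPKM in CCR3 and 5.87, 5.57 and 4.77 FPKM in VEH, with CCR3 replicate 2 highest and no overlap (limma adjusted p = 0.0797). Bmpr1a, a receptor needed for hair shaft differentiation, averaged 23.5 ± 2.76 FPKM in CCR3, against 21.5 ± 0.665 FPKM in VEH (SD, n = 3 each, limma adjusted p = 0.465).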

How the data were processed

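Skin of 6 mouse libraries was profiled, 3 per group. Per the labels' protocols, RNA was taken with Trizol, selected with oligo(dT), copied with random hexamers and read single-end at 50 bases on DNA nanoballs. The submitters' processing notes name HISAT as the aligner. Its version, the build, the gene models and the counter: not given in the sources used here. The deposited values are FPKM, per the file headers. Depth is unknown. Of 189 low values, 15.3% came out as whole multiples of the gene's smallest nonzero value within 0.05, against 10% by chance. That smallest value need not be 1 read, so this check cannot show whether counts could be recovered. No read counts were recovered, and the count test that had been planned for a table of counts was not used.

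Genes at 1 FPKM or more in at least 3 libraries were fitted on log2(FPKM + 1) with limma 3.58.1 in R 4.3.3 (variance trend, no replicate block, 2-sided). P-values were adjusted by the Benjamini-Hochberg method over 13063 genes. Such fold changes understate those of low genes. Type II to type I ratios were compared by exact permutation. The fit was checked on simulated data. Deviations from the group means correlated with r between -0.06 and 0.08 for same-numbered libraries, and between -0.08 and 0.14 for differently numbered ones. With 3 libraries per group, this check cannot tell whether the numbers pair the samples.

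Keratins and supporting lists were chosen with earlier results of these data known. Keratins averaging 1 FPKM in a group are given by library, the others by range. Of each supporting list, called members and the 2 highest by mean FPKM are named. Windows of 50 bases were compared among GENCODE M21 transcripts, and promoters came from RefSeq (GRCm38.p6). Alternatives were another scaling, filter, pseudocount, variance trend, a replicate block and each library left out.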

Additional observations from a re-analysis of the deposited data

How the results depend on the processing

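No keratin was called under any of the alternatives that kept all 6 libraries at the threshold of 0.05, and 1, Krt84, was called higher at an adjusted p under 0.1. Leaving out each library in turn, 0 to 4 keratins were called higher (Krt84 without CCR3 replicate 2, and Krt84, Krt36, Krt25 and Krt78 without CCR3 replicate 4) and 0 lower. These 2 fits called 148 genes higher over all tested genes without CCR3 replicate 2 and 558 without CCR3 replicate 4. Over all genes, 178 were called higher and 310 lower, against 230 and 261 with median-centred values, 158 and 173 with equal FPKM sums, 90 and 130 with no filter, 89 and 144 with the replicate block, and 28 to 558 and 40 to 1083 with a library left out. The block gave no keratin call. Of the keratin fold changes under alternatives with all libraries, 185 kept their direction and side of the threshold, and 1, that of Krt77, turned to 0.0103 when median-centred. With a library left out, log2 fold changes ran through 0 for Krt7 (-0.21 to 0.0596), Krt71 (-0.0116 to 0.61), Krt77 (-0.12 to 0.11), Krt17 (-0.11 to 0.0149), Krt1 (-0.28 to 0.25), Krt4 (-0.17 to 0.0758) and Krt79 (-0.00375 to 0.27). The same held for the log2 differences of the ratios of Krt5 to Krt14 (-0.0272 to 0.21) and of Krt6a and Krt6b to Krt16 and Krt17 (-0.0358 to 0.0927). The ratio of mean FPKM sums for simple keratins was 1.07, 1.10 with equal FPKM sums and 1.05 to 1.10 with a library left out, and for the inner root sheath 1.37 and 1.03 to 2.12. The cause of these shifts was not tested. Depth is unknown, so the counting error of low keratins cannot be given. A planned ratio of 1 further pair was not computed.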

Other observations

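Keratin-associated proteins, which cross-link keratins in the hair shaft, were kept out of the keratin count. Of these, 6 genes were tested and none was called by limma. Krtap3-1 was at 27.3, 86.2 and 20.96 FPKM in CCR3 and 10.7, 13.7 and 10.4 FPKM in VEH (log2 fold change 1.59, limma adjusted p = 0.0873). Krtap3-3 was at 10.4, 51.9 and 7.55 FPKM in CCR3 and 2.88, 2.99 and 3.55 FPKM in VEH (log2 fold change 2.07, limma adjusted p = 0.0902). Both were without overlap between the groups, as were Krtap6-2, Krtap13 and Krtap3-2, while Krtap21-1 overlapped. Over all tested genes, 10.4% had all CCR3 libraries above all VEH libraries. In all 6 genes CCR3 replicate 2 was the highest library, at 2.42 to 5.78 times the mean of the other CCR3 libraries, as was the case for Krt36 and Krt84. Of all tested genes, 0.513% reached 2 times in that library.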
